A study of Mus musculus with 8 samples.

Results

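The Hes and Hey genes, their feedback regulator Nrarp and the DNA-binding factor Rbpj were followed in retinal messenger RNA of the mouse at postnatal day 5. They were taken by gene symbol (Hes1, Hes5, Hes6, Hey1, Hey2, Heyl, Nrarp and Rbpj), and all 8 were present among the 16109 genes of the count table. The study compared retinas of complement C3 deficient and wild-type mice while vessels grow across the retina. It holds 4 libraries labelled C3 KO, a knockout of complement component C3, and 4 labelled WT, wild type. Both labels give the strain as C57BL/6, the tissue as retina and the age as postnatal day 5, and name no further allele or treatment. The labels give neither the kind of C3 allele, the sex, nor the number of animals behind a library, so p-values measure the spread between these libraries.

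Notch is a receptor that passes a signal between touching cells. When a ligand on a neighbouring cell binds it, its inner part is cut free, enters the nucleus, joins the DNA-binding protein Rbpj and switches on Hes and Hey genes. Hes and Hey proteins are basic helix-loop-helix (bHLH) repressors that silence proneural genes, and in the young retina they keep progenitors from becoming neurons and favour Mueller glia. In blood vessels, Hey1 and Hey2 belong to the arterial programme and Heyl to pericytes and smooth muscle. Not all 8 are Notch targets in the strict sense. Rbpj is the effector of the pathway rather than one of its typical targets, and Hes6 is a Hes relative that opposes Hes1 and accompanies neuronal differentiation.

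Start-site sequences show how members differ in the letters that Rbpj is known to read. RefSeq windows from 250 bases before to 50 bases after a transcription start were at hand for 5 of the 8 genes, Hes5, Hes6, Hey2, Nrarp and Rbpj, in 7 windows of build GRCm38.p6. The core GTGGGAA was searched on both strands, so that the opposite strand reads TTCCCAC. The windows below are shown because Hes5 and Hey2 hold the motif and Nrarp, which is also a Notch target, does not. Matches are in capitals.
Hes5, chr4:154960673-154960972, plus strand: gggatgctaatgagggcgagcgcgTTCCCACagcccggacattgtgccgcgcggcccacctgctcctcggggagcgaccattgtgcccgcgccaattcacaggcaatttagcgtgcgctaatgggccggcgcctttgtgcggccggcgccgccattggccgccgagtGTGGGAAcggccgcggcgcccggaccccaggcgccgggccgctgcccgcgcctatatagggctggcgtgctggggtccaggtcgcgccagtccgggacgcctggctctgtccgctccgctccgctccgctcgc
Hey2, chr10:30842734-30843033, minus strand: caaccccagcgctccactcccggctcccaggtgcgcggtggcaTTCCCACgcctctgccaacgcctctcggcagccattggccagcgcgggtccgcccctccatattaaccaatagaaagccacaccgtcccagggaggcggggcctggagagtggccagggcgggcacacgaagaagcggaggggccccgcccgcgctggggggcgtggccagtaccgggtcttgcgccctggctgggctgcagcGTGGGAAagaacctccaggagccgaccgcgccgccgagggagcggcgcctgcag
Nrarp, chr2:25180508-25180807, plus strand: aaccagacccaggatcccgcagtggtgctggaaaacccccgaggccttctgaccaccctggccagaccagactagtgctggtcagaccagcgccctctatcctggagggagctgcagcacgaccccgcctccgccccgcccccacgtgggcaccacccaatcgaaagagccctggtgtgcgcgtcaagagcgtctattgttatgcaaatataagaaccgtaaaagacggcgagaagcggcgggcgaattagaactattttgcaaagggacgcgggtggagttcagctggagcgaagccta

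The Hes5 window held 2 matches, which began at −226 and −83 from the start site, the upstream one on the reverse strand and the downstream one on the forward strand. The Hey2 window also held 2 matches, at −207 on the reverse strand and at −4 on the forward strand. At least 1 match was found in 2097 of 32851 windows of the whole table (6.38%), and at least 2 in 84 windows (0.26%). The windows of Hes6, Nrarp and Rbpj held none, which says only that these letters are not in these bases. Hes1, Hey1 and Heyl were not matched to a window.

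Total counts ran from 17621087 to 19493979 reads in the libraries labelled C3 KO and from 16503564 to 19608824 in those labelled WT. The targeted gene ran against its label, with 1419 to 1718 C3 reads in the libraries labelled C3 KO and 33 to 55 in those labelled WT. Gene counts do not show which exons were read, and whether the labels were exchanged was not tested. Every direction below belongs to libraries as labelled and would reverse if the labels were exchanged. Sex-linked RNA also moved with the labels, with the mean of 4 Y-linked genes at 74.8 to 88.2 CPM under C3 KO and at 75.8 CPM in WT replicate 3 against 0.448 to 5.05 CPM in the other WT libraries. CPM expresses each count relative to the scaled total of its library. Xist, an RNA made from the inactive X, stood at 1.48 to 2.65 CPM under C3 KO and at 295 CPM in WT replicate 3 against 2195 to 2441 CPM in the other WT libraries. Pigment epithelium and melanocyte genes summed to 283 to 309 CPM under C3 KO and 103 to 157 CPM under WT. The part of sex and of pigment epithelium in the differences reported here was not tested apart from the alternatives given.

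The 8 genes were well covered, with 147 to 3130 reads per library. Of these, 5 were called lower in the libraries labelled C3 KO and none higher (edgeR's quasi-likelihood test, Benjamini-Hochberg adjusted p below 0.05 over 15850 genes). Among all genes tested 5.98% were called lower and 8.33% higher. Hes1, Hes6, Hey2, Heyl and Nrarp fell, and Hes5, Rbpj and Hey1 did not pass. The median log2 fold change was −0.42 over the 8 genes, of which 7 were negative, against 0.0044 over all genes tested. In bulk RNA fewer cells of a type cannot be told apart from less RNA per cell.

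**Figure D1:**
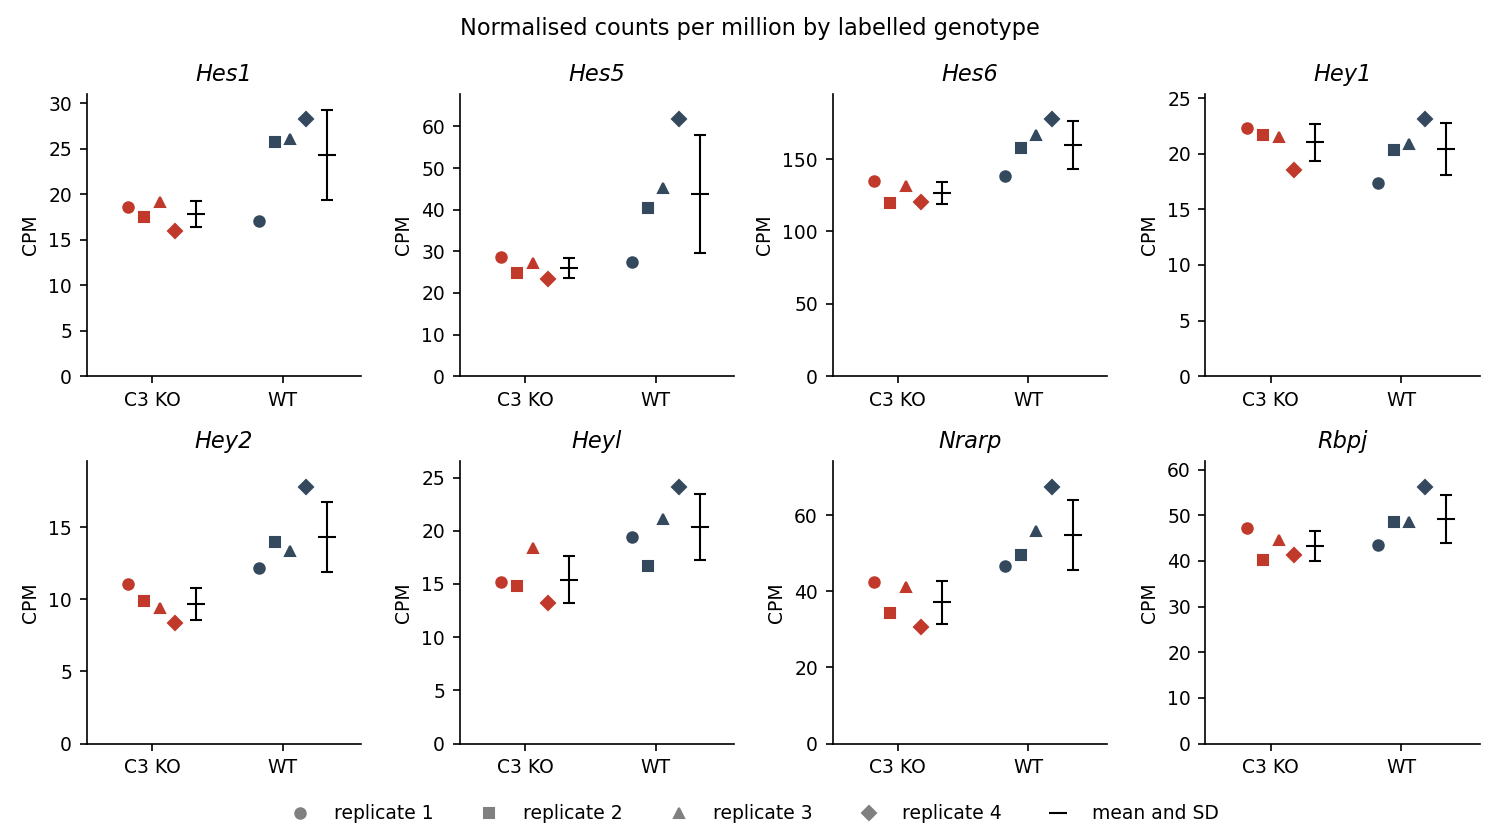
Normalised CPM (vertical axes, from 0) of the 8 genes in the 4 libraries labelled C3 KO (red, left) and the 4 labelled WT (blue, right), with 1 symbol per replicate and the mean with SD in black. Hes6, Hey2 and Nrarp had no overlap between labels, and WT replicate 1 lay among the C3 KO libraries for Hes1, Hes5 and Rbpj.

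Hes1 is a repressor that progenitors throughout the nervous system use to delay differentiation. Under the C3 KO label, replicates 1 to 4 had 18.6, 17.5, 19.2 and 16.0 CPM. Under the WT label they had 17.0, 25.8, 26.1 and 28.2 CPM. All C3 KO libraries lay close together and below 3 of the WT libraries, while WT replicate 1 lay among them. The means were 17.8 ± 1.41 CPM under C3 KO and 24.3 ± 4.97 CPM under WT (SD, n = 4 each), and the log2 fold change was −0.44 ± 0.12 (SE; adjusted p = 0.023 by edgeR). The call was lost in 5 of 8 fits that left out 1 library. Those fits lacked C3 KO replicate 2 (edgeR adjusted p = 0.054), C3 KO replicate 4 (0.0752), WT replicate 2 (0.057), WT replicate 3 (0.0609) or WT replicate 4 (0.0666). Without WT replicate 1 the log2 fold change was −0.58 (edgeR adjusted p = 8.65e-05). With 1 surrogate variable as a covariate it was −0.29 and the call was lost (edgeR adjusted p = 0.154), as it was by limma on RPKM (adjusted p = 0.0672 and 0.0692 with pseudocounts of 1 and 0.1). With Y-linked expression as a covariate it was −0.70 (edgeR adjusted p = 0.0277).

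Hes5 is a Notch-dependent repressor of neural progenitors and later of Mueller glia. Its replicates 1 to 4 gave 28.7, 24.8, 27.2 and 23.2 CPM under C3 KO. Under WT they gave 27.5, 40.5, 45.2 and 61.7 CPM. The WT libraries spread over a 2.25-fold range, against 1.24-fold for C3 KO, and WT replicate 1 again lay inside the C3 KO range. Hes5 had the lowest log2 fold change of the 8 genes, −0.75 ± 0.24 (SE), with means of 26.0 ± 2.45 CPM under C3 KO and 43.7 ± 14.2 CPM under WT (SD, n = 4 each). It did not pass (edgeR adjusted p = 0.0996), and the 95% interval of its log2 fold change ran from −1.33 to −0.16, without adjustment for the number of genes. DESeq2 and limma-voom called it (adjusted p = 0.018 and 0.0107), and edgeR did without WT replicate 1 (adjusted p = 0.000183) or WT replicate 4 (0.0416).

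Hes6 was the most abundant of these RNAs. Its level was 135, 119, 131 and 120 CPM in replicates 1 to 4 under C3 KO, and 138, 158, 166 and 178 CPM under WT. The highest C3 KO library lay 3.04 CPM under the lowest WT library, which was WT replicate 1, so the labels did not overlap. Its log2 fold change was −0.34 ± 0.07 (SE, edgeR adjusted p = 0.00191), with means of 126 ± 7.88 CPM under C3 KO and 160 ± 16.6 CPM under WT (SD, n = 4 each). Of the 5 genes called, only Hes6 was called under all 19 alternative fits.

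Hey1 and Hey2, which are close relatives with a shared arterial role in endothelium, gave different values. Hey1 reached 22.3, 21.7, 21.5 and 18.6 CPM in C3 KO replicates 1 to 4 and 17.4, 20.3, 20.9 and 23.1 CPM in WT replicates 1 to 4. Its labels overlapped throughout, and the log2 fold change was 0.04 ± 0.09 (SE, edgeR adjusted p = 0.805) with a 95% interval of −0.15 to 0.24. It was the only one of the 8 genes with a positive value.

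Hey2, which is also made by Mueller glia in the mouse retina, reached 11.1, 9.89, 9.37 and 8.35 CPM in C3 KO replicates 1 to 4. The WT replicates gave 12.1, 14.0, 13.3 and 17.8 CPM. Every C3 KO library lay below every WT library. Hey2 averaged 9.66 ± 1.12 CPM under C3 KO and 14.3 ± 2.44 CPM under WT (SD, n = 4 each), and its log2 fold change was −0.56 ± 0.13 (SE, edgeR adjusted p = 0.00414). The call held in all 8 fits that left out 1 library. With Y-linked expression as a covariate the log2 fold change was −0.58 and the call was lost (edgeR adjusted p = 0.115). Within a library the RPKM of Hey1, the authors' read count per kilobase of gene and per library depth, was 2.32 to 2.64 times that of Hey2 under C3 KO and 1.50 to 1.81 times under WT. These ratios did not overlap between labels. How many gene pairs separate in this way was not counted, and the difference in response between both genes was not tested.

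Heyl, a Notch3 target of mural cells, was found at 15.2, 14.8, 18.4 and 13.2 CPM in C3 KO replicates 1 to 4. WT replicates 1 to 4 showed 19.4, 16.7, 21.1 and 24.1 CPM. C3 KO replicate 3 lay above WT replicate 2, so the labels overlapped. The log2 fold change was −0.40 ± 0.11 (SE, edgeR adjusted p = 0.0215), with means of 15.4 ± 2.18 CPM under C3 KO and 20.3 ± 3.11 CPM under WT (SD, n = 4 each). The call was lost without C3 KO replicate 1 (edgeR adjusted p = 0.0523), C3 KO replicate 4 (0.0789), WT replicate 3 (0.0539) or WT replicate 4 (0.0755). It was also lost with Y-linked expression (0.182) or 1 surrogate variable (0.106) as a covariate in edgeR, and by limma on RPKM (adjusted p = 0.0771 and 0.0766 with pseudocounts of 1 and 0.1).

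Nrarp is an ankyrin-repeat protein that Notch induces and that binds the active Notch complex and limits it. Its CPM was 42.4, 34.4, 41.1 and 30.6 in C3 KO replicates 1 to 4, and in the WT replicates it was 46.5, 49.4, 55.8 and 67.5. The labels were separated by 4.17 CPM. Nrarp averaged 37.1 ± 5.59 CPM under C3 KO and 54.8 ± 9.29 CPM under WT (SD, n = 4 each), and its log2 fold change was −0.56 ± 0.13 (SE; adjusted p = 0.0155 by edgeR). The call held in all 8 fits that left out 1 library, and was lost with Y-linked expression (adjusted p = 0.104) or 1 surrogate variable (0.0625) as a covariate. Hes6, Hey2 and Nrarp were thus the 3 of 8 genes whose C3 KO libraries all lay below the WT libraries, as did 7.72% of all genes tested.

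Rbpj, the DNA-binding partner of cleaved Notch, measured 47.2, 40.2, 44.5 and 41.2 CPM in C3 KO replicates 1 to 4. The WT replicates measured 43.5, 48.6, 48.5 and 56.2 CPM, with C3 KO replicates 1 and 3 above WT replicate 1. The means were 43.3 ± 3.21 CPM under C3 KO and 49.2 ± 5.27 CPM under WT (SD, n = 4 each). Its log2 fold change of −0.18 ± 0.07 (SE) did not pass (edgeR adjusted p = 0.103), although it did without WT replicate 1 (−0.24, edgeR adjusted p = 0.0268). Annotated RNAs lie on the opposite strand of Rbpj (Gm10441 and Gm40304), Nrarp (Gm38287) and Hes5 (Gm20421). The sources used here do not say if reads were counted by strand, and only whole gene spans, introns included, were compared. Whether reads of these partners entered the counts of the 3 genes was not tested.

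**Figure D2:**
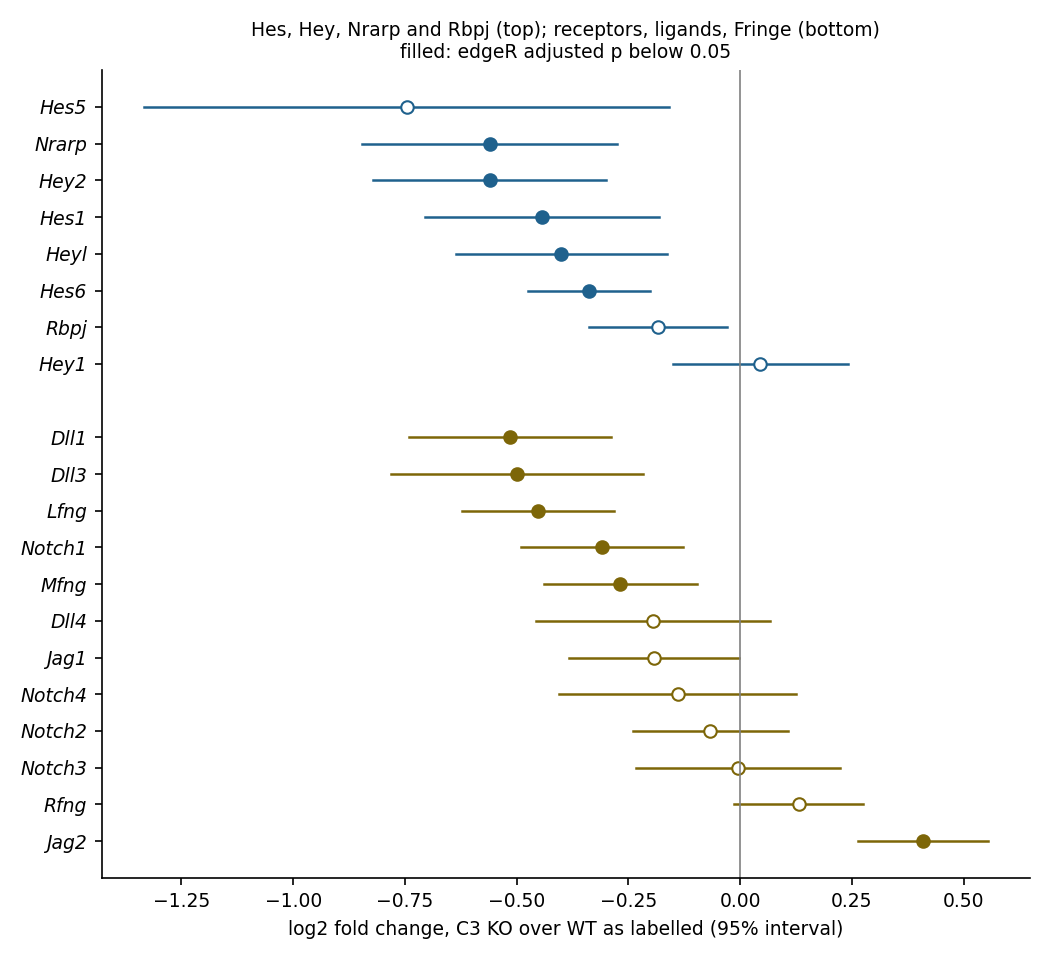
Log2 fold change of C3 KO over WT as labelled (horizontal axis) with its 95% interval, unadjusted, for the 8 genes (top) and for 12 Notch receptors, ligands and Fringe enzymes (bottom), filled where the edgeR adjusted p was below 0.05. Values of the 8 genes run from −0.75 for Hes5 to 0.04 for Hey1.

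Per length, the authors' RPKM put Hes6 far above the other members. It averaged 69.8 RPKM under C3 KO and 88.8 RPKM under WT, and its lowest library (66.1 RPKM) lay above the highest library of Hes5 (45.7 RPKM). Hes5 came next, at 19.1 RPKM under C3 KO and 32.3 RPKM under WT, followed by Nrarp at 14.4 and 21.4 RPKM. Hes5 exceeded Nrarp within each of the 8 libraries, although their ranges over all libraries overlapped. Hes1 ran from 7.84 to 9.39 RPKM under C3 KO and from 8.41 to 14.0 RPKM under WT, and Hey1 from 8.43 to 10.2 RPKM under C3 KO and from 7.94 to 10.6 RPKM under WT. By their means Hey1 stood above Hes1 under the C3 KO label and below it under WT. The RPKM of Hey1 was 1.04 to 1.15 times that of Hes1 in each C3 KO library and 0.729 to 0.944 times in each WT library, so the order of this pair differed between labels without overlap. That difference was not tested, and the share of gene pairs that separate was not counted. The ratio of Hes5 to Hes1 also separated (2.11 to 2.30 under C3 KO, 2.34 to 3.26 under WT). Those of Hes6 to Hes1 (7.65 to 8.43 and 6.86 to 9.10) and Hes6 to Hes5 (3.54 to 3.89 and 2.17 to 3.78) overlapped. Rbpj averaged 7.43 RPKM under C3 KO and 8.51 RPKM under WT, Hey2 3.82 and 5.68 RPKM, and Heyl 3.02 and 4.01 RPKM. Each of the neighbouring pairs from Hes5 downward overlapped in range, and only Hes6 stood clear of the next gene.

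**Figure D3:**
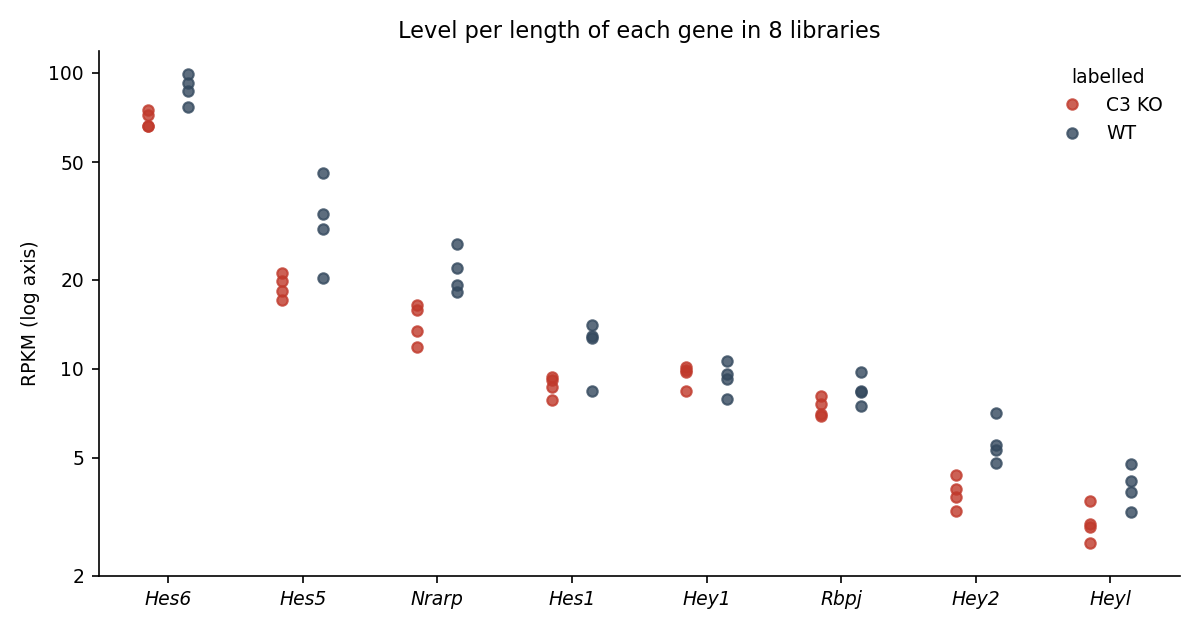
Level of each gene per length (RPKM, log axis) in 4 libraries labelled C3 KO (red, left of each pair) and 4 labelled WT (blue, right), ordered by the mean of the 8 libraries. Hes6 lies between 66.1 and 99.0 RPKM, above every other gene, and Heyl is lowest at 2.58 to 4.78 RPKM.

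Members varied together across libraries as well as between labels. Under the WT label replicate 4 was the highest library for 8 of 8 genes, and replicate 1 the lowest for 7 of 8, the exception being Heyl. Under the C3 KO label replicate 4 was the lowest for 6 of 8 genes, and replicate 1 the highest for 6 of 8. Across the 8 libraries the Pearson correlation of log2 CPM lay between 0.719 and 0.972 for the 21 pairs of genes other than Hey1, and between 0.255 and 0.522 for the 7 pairs that include Hey1. These values describe shared libraries and include the difference between labels.

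Summed proliferation genes had the same extremes, with 542 CPM in C3 KO replicate 4 and 666 to 793 CPM in the other C3 KO libraries, against 717 CPM in WT replicate 1 and 858 to 917 CPM in the other WT libraries. Pigment epithelium genes summed to 309 CPM in C3 KO replicate 4, the highest library, and to 103 CPM in WT replicate 4, the lowest. Their part in the library-to-library spread of the 8 genes was not tested.

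**Figure D4:**
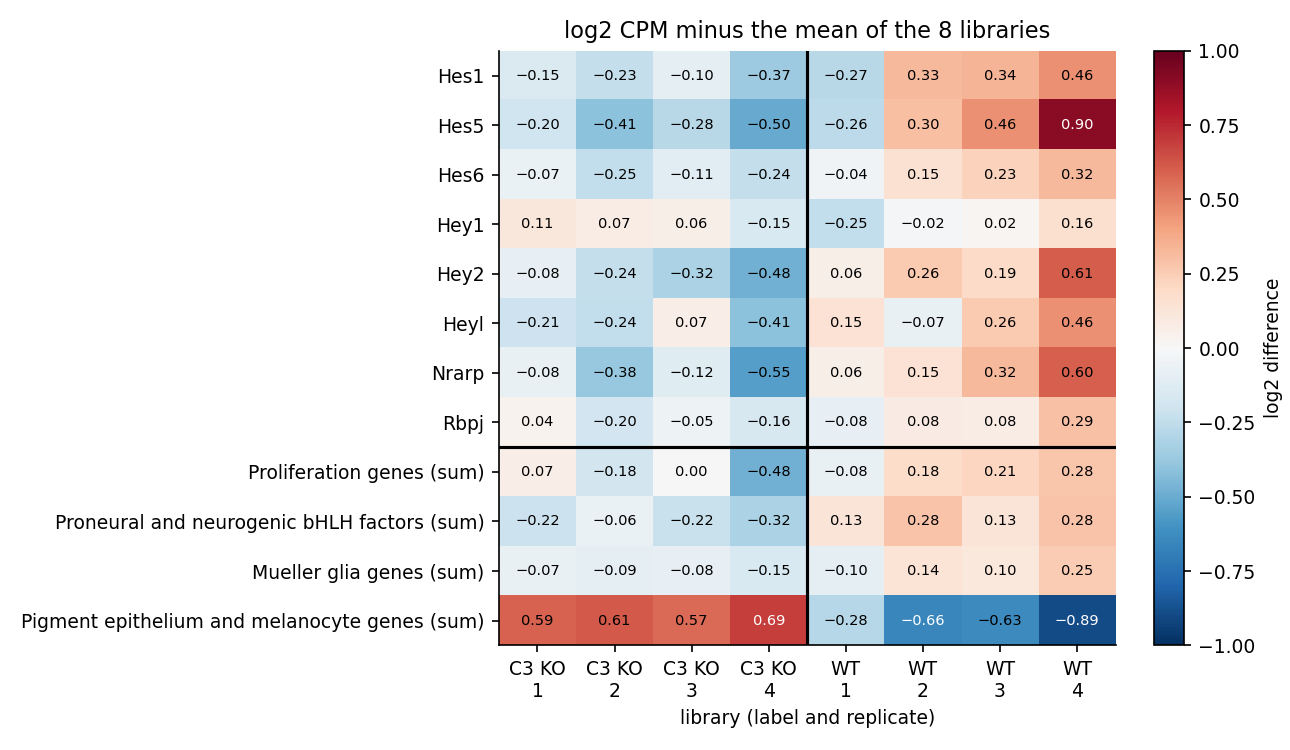
Log2 CPM minus the mean of the 8 libraries (colour and printed value) for each of the 8 genes and for the summed CPM of 4 marker lists, in the libraries labelled C3 KO (left) and WT (right). WT replicate 4 is highest for each of the 8 genes (0.90 for Hes5). Among the C3 KO libraries, replicate 4 is lowest for 6 of them. The pigment epithelium sum runs the other way.

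For each gene called, the 3 most similar genes were sought among 12388 genes averaging at least 5 CPM, by Pearson correlation of log2 CPM over the 8 libraries. Hes1 was most like Acsl3 (r = 0.985), Ssrp1 (0.984) and Tesk2 (0.981). Hes6 was most like Smek1 (0.994), Psip1 (0.994) and Prss23 (0.986). For Hey2 the closest were Zfp36l2 (0.989), Ust (0.988) and Fam116a (0.988), and for Heyl they were Tbrg1 (0.972), Gm9800 (0.965) and Klf13 (0.963). Nrarp was closest to Zfp36l1 (0.991), Tmem123 (0.988) and Racgap1 (0.986). The highest of so many correlations over 8 libraries are large in any case, so these names are a description only.

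Upstream of the 8 genes, Notch receptors, ligands and Fringe enzymes had 5 lower and 1 higher of 12 under the C3 KO label, with a median log2 fold change of −0.19. The ligands Dll1 (31.2 CPM under C3 KO, 44.7 CPM under WT, edgeR adjusted p = 0.00446) and Dll3 (11.6 and 16.4 CPM, edgeR adjusted p = 0.0171) fell, as did Lfng, a Fringe enzyme that tunes ligand choice (18.8 and 25.8 CPM, edgeR adjusted p = 0.000786). The ligand Jag2 rose (44.0 CPM under C3 KO, 33.1 CPM under WT, edgeR adjusted p = 0.00042). Notch1 and Mfng were the other 2 that fell, with log2 fold changes of −0.31 and −0.27, and are named because their calls complete the count. Calls were lost without C3 KO replicate 1 for Dll3 (edgeR adjusted p = 0.0586), Notch1 (0.0586) and Mfng (0.0588), without WT replicate 2 for Notch1 (0.07) and without WT replicate 4 for Dll3 (0.0632). Mfng was called in 3 of 8 such fits, losing its call also without C3 KO replicate 2 (0.0725), C3 KO replicate 4 (0.0733), WT replicate 3 (0.0628) or WT replicate 4 (0.129).

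Genes of the machinery that carries the signal, and co-repressors, had few calls. Over all genes tested 5.98% were called lower and 8.33% higher. The counts below are near those shares and are no result about the machinery. Of 30 genes of receptor cleavage, ligand uptake and the Notch transcription complex 1 was lower and 1 higher, with a median of −0.03. Snw1, a cofactor of Rbpj, fell (148 CPM under C3 KO, 171 CPM under WT, edgeR adjusted p = 0.0066), and the Deltex family gene Dtx3 rose (175 and 154 CPM, edgeR adjusted p = 0.011). Of 19 co-repressors 1 was lower and 1 higher, with a median of −0.06. Tle2, of the Groucho family that Hes proteins recruit, rose (41.9 CPM under C3 KO, 31.4 CPM under WT, edgeR adjusted p = 0.000871), and Ctbp2 fell (−0.15, edgeR adjusted p = 0.047). Dtx3 lost its call without C3 KO replicate 4 (0.0733) or WT replicate 3 (0.0568). Ctbp2 kept it in 2 of 8 fits, with edgeR adjusted p-values of 0.177, 0.105 and 0.0751 without C3 KO replicate 1, 3 or 4 and of 0.0847, 0.0872 and 0.0755 without WT replicate 2, 3 or 4.

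Other relatives of the Hes family were scarce or showed no call. Of 4 measured, Hes2 and Hes7 lay below 1 CPM under both labels, and Bhlhe40 had the smallest p (5.17 CPM under C3 KO, 6.69 CPM under WT, edgeR adjusted p = 0.131). Among the 4 Id genes, whose products block bHLH factors, Id3 fell (−0.25, edgeR adjusted p = 0.0322) and Id4 rose (0.22, edgeR adjusted p = 0.0352). Id3 was called in 3 and Id4 in 4 of 8 fits that left out 1 library. Id3 lost its call without C3 KO replicate 2 (0.0794), 3 (0.0904) or 4 (0.0769) or WT replicate 3 (0.0986) or 4 (0.0671), and Id4 without C3 KO replicate 3 (0.137) or 4 (0.166) or WT replicate 2 (0.11) or 3 (0.113).

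Proneural and neurogenic factors, bHLH genes together with the zinc finger gene Insm1, also had lower values. Only some of them are known to be silenced by Hes proteins. Of 12 measured 6 fell and none rose, with a median log2 fold change of −0.54. Neurog2 (−0.68) and Neurod1 (−0.38), which promote neuronal fates, and Bhlhe23 (−1.11) fell, with edgeR adjusted p-values of 0.000805, 0.000234 and 0.00827. These 3 calls held in all 8 fits that left out 1 library. Whether the levels of these factors are linked to those of the Hes and Hey genes was not tested.

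Progenitors and Mueller glia are the retinal cells in which Hes1 and Hes5 are known to be active. Of 13 progenitor genes 6 were lower and 2 higher, with a median of −0.36 and 10 log2 fold changes below 0. Their summed level was 2180 to 2386 CPM under C3 KO and 2017 to 2446 CPM under WT. The 2 genes called higher had the largest levels in that sum. Rax (−0.40), Sfrp2 (−0.76) and Lhx2 (−0.38), which are progenitor factors, fell with edgeR adjusted p-values of 6.52e-05, 0.00338 and 0.00432. Pax6, which amacrine and ganglion cells also make, rose (0.27, edgeR adjusted p = 0.00118). The cell cycle gene Ccnd1 was the other that rose (954 CPM under C3 KO, 770 CPM under WT, edgeR adjusted p = 0.022) and is named because it completes the count. It lost its call without C3 KO replicate 1 (0.0657), C3 KO replicate 3 (0.0654) or WT replicate 3 (0.0562). Of 16 Mueller glia genes 5 were lower and none higher, with a median of −0.24, among them Sox8 (−0.74, edgeR adjusted p = 0.00303), Sox9 (−0.45, 0.0065), Dkk3 (−0.34, 0.00727) and Kcnj10 (−0.59, 0.00849). All 15 proliferation genes had negative log2 fold changes, but 1 of them was called, Mcm4 (−0.31, edgeR adjusted p = 0.0222), and lost its call without C3 KO replicate 4 (0.0903), WT replicate 3 (0.0774) or WT replicate 4 (0.0719). With Y-linked expression as a covariate Jag2, Neurog2, Rax, Sfrp2, Lhx2 and Dkk3 kept their calls. Lfng, Dll1, Snw1, Tle2, Neurod1, Bhlhe23, Pax6, Sox8, Sox9 and Kcnj10 lost theirs, with edgeR adjusted p-values of 0.075 (Snw1 and Sox9) to 0.334 (Bhlhe23). With 1 surrogate variable as a covariate Bhlhe23 (0.084), Sox9 (0.0511) and Kcnj10 (0.0876) lost theirs, and the other 13 of these 16 genes kept them. Every other called list gene named above or below, the members aside, lost its call with Y-linked expression as a covariate. Their edgeR adjusted p-values ran from 0.0804 (Id3) to 0.417 (Vtn). With 1 surrogate variable as a covariate, Dtx3 (0.0145), Id4 (0.0376) and Vtn (0.0198) of these genes kept their calls. The rest of them lost theirs, with edgeR adjusted p-values of 0.0623 (Tek) to 0.329 (Cxcr4).

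**Figure D5:**
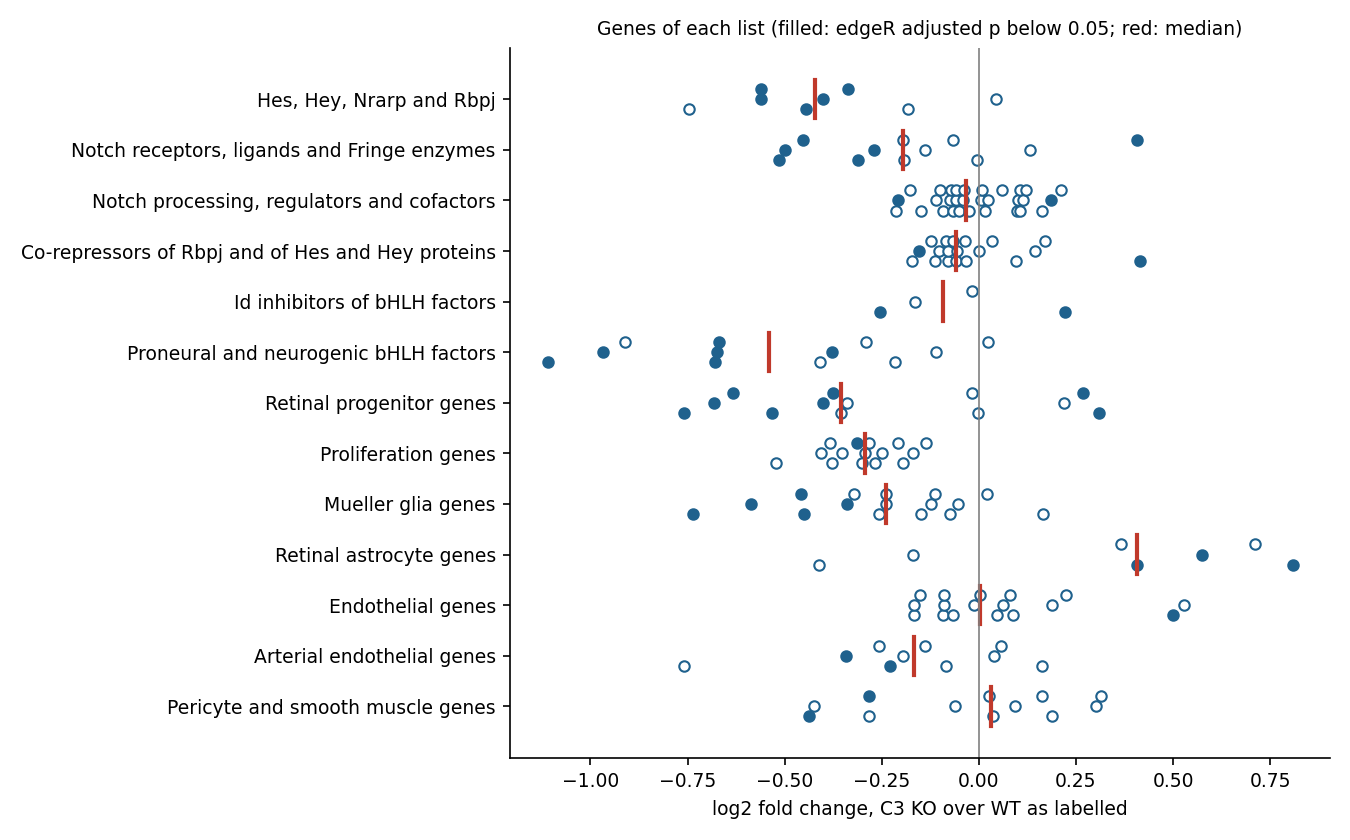
Log2 fold change of C3 KO over WT as labelled (horizontal axis) for genes of 13 lists, 1 point per gene, filled where the edgeR adjusted p was below 0.05, with the median of each list in red. Medians run from −0.54 for proneural and neurogenic factors to 0.41 for astrocyte genes, and the 8 genes have −0.42.

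Among marker genes of vessel cells, the other known source of Hey RNA, none of the 5 calls held in all 8 fits that left out 1 library. The RNA is of bulk retina, so these calls cannot be placed in vessel cells. Of 17 endothelial genes 1 was higher and none lower, with a median of 0.0026. That gene was the angiopoietin receptor Tek (0.50, edgeR adjusted p = 0.0151), which lost its call without C3 KO replicate 3 (0.0661), C3 KO replicate 4 (0.0558) or WT replicate 4 (0.0536). Of 10 arterial genes 2 were lower, with a median of −0.17, namely the ephrin Efnb2 (−0.23, edgeR adjusted p = 0.0388) and Cxcr4, a receptor for a chemokine (−0.34, edgeR adjusted p = 0.0487). When single libraries were left out, the calls were kept in 3 and 2 of 8 fits, and edgeR adjusted p-values reached 0.116 without C3 KO replicate 4 and 0.146 without WT replicate 4. Of 12 pericyte and smooth muscle genes 2 were lower, with a median of 0.03. These were Vtn (−0.28, edgeR adjusted p = 0.0264) and Ndufa4l2 (−0.44, edgeR adjusted p = 0.0361), each called in 3 of 8 such fits, and their edgeR adjusted p-values reached 0.0803 without WT replicate 1 and 0.0798 without C3 KO replicate 1.

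Photoreceptor genes summed to 7720 to 9292 CPM under C3 KO and 8927 to 10072 CPM under WT, so the defining genes of retina were abundant in every library, and 3 of 14 were lower. Over all genes tested 5.98% were called lower and 8.33% higher. Ganglion cell genes had 6 of 8 higher (median 0.28) and astrocyte genes 3 of 7 higher (median 0.41). The 6 ganglion cell calls were kept in 1 to 8 of 8 fits that left out 1 library. All 6 were lost with Y-linked expression as a covariate (edgeR adjusted p = 0.0509 to 0.243). The 3 astrocyte calls held in all 8 fits that left out 1 library. Amacrine genes had 1 of 5 higher, bipolar genes 1 higher and 2 lower of 8, and horizontal cell genes no call among 5. Among cells that dissection could carry along, pigment epithelium and melanocyte genes had 11 of 15 higher (median 1.11), fibroblast and sclera genes 3 of 6 higher, and red blood cell genes 5 of 5 lower. Microglia genes had 3 of 13 higher. Of 3 lens genes tested 1 was lower. The 4 lens genes counted, 1 of them left out by the filter, summed to 3.89 to 5.70 CPM under C3 KO and 4.31 to 8.87 CPM under WT. Whether these differences in cell content set the levels of the Hes and Hey genes was not tested.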

How the data were processed

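Poly(A) RNA was sequenced from directional libraries of dissected retinas with hyaloid vessels removed, per the labels' protocols. The deposited table holds raw gene counts without normalization. The authors also deposited log2 RPKM values. These match a count raised by 2 reads in proportion to depth, to within 0.0133. They were turned back to a linear scale for levels between genes. STAR, HTSeq and the builds mm9 and NCBIM37 are listed, with no tool version, per the submitters' processing notes. Columns were matched to samples by title. Genes passing edgeR's expression filter (15850, with 259 left out) were fitted in R 4.3.3 with edgeR 4.0.16, TMM scaling and the robust quasi-likelihood test, 4 libraries labelled C3 KO against 4 labelled WT, without covariates. The procedure was tested on simulated data. Each gene was drawn independently there, so the simulation cannot speak to variation that genes share within a library. Calls needed an adjusted p (Benjamini-Hochberg) under 0.05, and the SE was taken from the fold change and F statistic. Alternatives were RLE and upper quartile scaling, DESeq2 1.42.0, limma-voom and limma on RPKM (limma 3.58.1), other filters, a replicate block, Y-linked expression or 1 surrogate variable (sva 3.50.0) as a covariate, and leaving out each library. Pairs of libraries of a label differed beyond sampling noise (chi-square per degree of freedom at least 3.72). Members and gene lists were chosen with earlier results of these data known, so list counts are descriptions. Named genes are the members, up to 4 called genes of a Notch, progenitor, glial or vessel list with the smallest p, or the gene with the smallest p where none was called, and the genes most like each member called. A further gene that this rule names is not reported here.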

Additional observations from a re-analysis of the deposited data

How the results depend on the processing

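Depth limited these genes little, at 147 reads or more in every library, whereas the 4 libraries per label limited precision. Across 19 alternative fits Hes6 was called in 19, Hey2 in 18, Nrarp in 16, Hes1 and Heyl in 11, Hes5 in 4, Rbpj in 1 and Hey1 in none. Log2 fold changes stayed negative for all but Hey1, which was −0.067 with Y-linked expression as a covariate and −0.027 without WT replicate 1, the lowest of its values with single libraries left out (highest 0.10). The log2 fold change of Hes5 passed by DESeq2 (−0.76) and limma-voom (−0.68). On log2(RPKM + 1) Hes1 (−0.40) and Heyl (−0.31) did not pass, nor on log2(RPKM + 0.1) (−0.43 and −0.39), and 3 members were called, with 1490 and 1479 genes called in all (819 and 808 higher). With Y-linked expression as a covariate Hey2 (−0.58), Heyl (−0.45) and Nrarp (−0.66) did not pass, 2 members were called, and 400 genes were (267 higher, 133 lower). With 1 surrogate variable Hes1 (−0.29), Heyl (−0.34) and Nrarp (−0.46) did not pass, 2 members were called, and 1239 genes were (758 higher, 481 lower). The correlation of each covariate with the labels was 0.746 and 0.471, and the cause of each loss was not tested. Same-numbered libraries did not deviate together, with correlations of −0.099, 0.128, 0.033 and −0.073, and with the replicate block Nrarp did not pass (−0.56) while 2400 genes were called. When 1 library was left out, log2 fold changes ran from −0.58 to −0.37 for Hes1, −0.92 to −0.54 for Hes5, −0.50 to −0.32 for Heyl and −0.24 to −0.12 for Rbpj. In these fits 3 to 7 members were called, and 1305 to 2543 genes, of which 761 to 1516 were higher and 544 to 1027 lower. By CPM in place of RPKM, Rbpj stood in position 2 and not 6 in the order of levels, Hes5 in 4, Hes1 in 5, Hey1 in 6, Heyl in 7 and Hey2 in 8. Of the counts of list genes recomputed under alternatives, 708 stayed within 1.5 times and 166 did not. Counts of 0 that stayed at 0 are among the 708, so that number overstates how stable the calls were.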
